A study of Mus musculus with 10 samples.

Results

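Rpl3, Rpl3l, Eef1a1 and Eef1a2 are 4 genes in 2 paralogue pairs of the protein synthesis machinery, each pair with a form made in most tissues and a form made mainly in striated muscle. They are 4 of the 23303 gene entries of the deposited table, and each was found by its symbol, with 1 entry per gene. The study profiled left ventricle RNA of male 129X1/SvJ mice, 5 with chronic kidney disease (labelled CKD under surgery) and 5 labelled Sham, which its design text calls normal. All 10 mice share strain and sex. Neither their age nor the kind of surgery is stated in the sources used here. The series title names experimental uremic cardiomyopathy, a heart disease that accompanies kidney failure, as its subject.

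RPL3 is a protein of the large ribosomal subunit that reaches towards the peptidyl transferase centre, where peptide bonds are made. RPL3L can take its place in the ribosomes of heart and skeletal muscle, where it becomes the main form after birth. eEF1A, the product of Eef1a1 or Eef1a2, binds aminoacyl-tRNA and GTP and delivers the tRNA to the ribosome. Eef1a1 is active in most cells, whereas Eef1a2 takes over in neurons and in heart and skeletal muscle as these mature.

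The genes were chosen by their measured FPKM in the CKD and Sham libraries, the same values reported here, so their differences between the groups are given as a description, without a test. FPKM is a read count scaled to transcript length and library size, so levels can be compared between genes. Differences are of means of log2(FPKM + 0.5). CKD 1 and Sham 1 stood apart from the other 8 libraries: their 10 most abundant genes took 14.8% and 15.3% of the summed FPKM, against 17.6% to 18.2% in the others, and values without both are given where they bear on a result. The cardiomyocyte markers placed the samples in heart muscle, with a mean for Myl2, the ventricular myosin light chain, of 20242 FPKM in the CKD mice and 20611 FPKM in the Sham mice, but Myh6, the alpha myosin heavy chain, was listed at 0 in all 10 libraries. Myh6 is a main gene of the adult mouse ventricle, so a 0 in this table can be a failed estimate and does not show that a gene was absent.

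How far reads of the paralogues can be told apart was read from their coding sequences in the GENCODE transcripts of GRCm38. The 1221 coding bases of Rpl3l and the 1209 of Rpl3 were identical at 74.4% of 1205 aligned positions. The longest stretch without a difference was 22 bases, shorter than the reads of 100 bases. For Eef1a2 (1389 coding bases) and Eef1a1 (1386 coding bases) the identity was 80.1% of 1386 positions and the longest stretch was 23 bases. The 90 coding bases around the longest shared stretch of each pair are shown because they hold the longest run that reads of both genes would share. Capitals mark the bases that differ within a pair, 23 for the ribosomal proteins and 13 for the elongation factors.
Rpl3l coding bases 111 to 200: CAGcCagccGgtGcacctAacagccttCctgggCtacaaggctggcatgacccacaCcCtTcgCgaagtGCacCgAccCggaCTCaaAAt
Rpl3 coding bases 111 to 200: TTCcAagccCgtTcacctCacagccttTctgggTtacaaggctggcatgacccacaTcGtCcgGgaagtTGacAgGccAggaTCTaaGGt
Eef1a2 coding bases 270 to 359: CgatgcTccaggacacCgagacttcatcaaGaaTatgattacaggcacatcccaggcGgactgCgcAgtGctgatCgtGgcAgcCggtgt
Eef1a1 coding bases 270 to 359: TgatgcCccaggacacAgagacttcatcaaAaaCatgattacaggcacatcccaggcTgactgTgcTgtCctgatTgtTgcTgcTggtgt

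No stretch of 100 bases occurred in both genes of a pair. The ubiquitous forms, however, shared such stretches with pseudogenes, non-coding copies elsewhere in the genome. Of the 1252 windows of 100 bases in the Rpl3 transcript, 994 (79.4%) also occurred in a transcript of another gene, and all 7 such genes were pseudogenes, led by the processed pseudogene Rpl3-ps1 with 953 windows. Of the 1695 windows of Eef1a1, 452 (26.7%) were shared, with 10 genes of which 9 were pseudogenes. Of the 1276 windows of Rpl3l and the 1985 of Eef1a2, 0 were shared. None of these other genes had an entry under its own symbol in the table. The sources used here do not give the assignment of reads with several matches. The levels of Rpl3 and, to a lesser extent, Eef1a1 relative to their partners are therefore uncertain.

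In GRCm38, by the RefSeq annotation, Rpl3l lies on the forward strand of chromosome 17 from 24727826 to 24736143 and Rpl3 on the reverse strand of chromosome 15 from 80077781 to 80083406. Eef1a2 lies on the reverse strand of chromosome 2 from 181141758 to 181157015, and Eef1a1 on the reverse strand of chromosome 9 from 78478453 to 78481724. The main transcripts of Rpl3 and Rpl3l have 10 exons each, all with coding sequence, and those of Eef1a1 and Eef1a2 have 8 exons each, 7 of them coding. RefSeq promoters of build GRCm38.p6 were matched for 3 of the 4 genes, Rpl3l, Eef1a1 and Eef1a2. The 250 bases before the start of the muscle forms are shown because Rpl3l was lower in CKD and Eef1a2 was not. Capitals mark matches on either strand to an E-box (CANNTG), which muscle transcription factors of the basic helix-loop-helix class can bind, or a GC box (GGGCGG).
Rpl3l promoter, chr17:24727576-24727825, forward strand: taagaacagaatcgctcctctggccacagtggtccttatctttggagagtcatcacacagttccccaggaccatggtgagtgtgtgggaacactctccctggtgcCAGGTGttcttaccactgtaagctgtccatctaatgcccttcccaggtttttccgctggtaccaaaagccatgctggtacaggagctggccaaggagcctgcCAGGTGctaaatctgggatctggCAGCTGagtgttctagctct
Eef1a2 promoter, chr2:181157016-181157265, reverse strand: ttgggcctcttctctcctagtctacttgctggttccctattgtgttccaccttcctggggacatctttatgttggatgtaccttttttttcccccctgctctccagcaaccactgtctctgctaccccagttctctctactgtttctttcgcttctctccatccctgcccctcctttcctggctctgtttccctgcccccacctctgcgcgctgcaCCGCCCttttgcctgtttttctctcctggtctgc

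The Rpl3l promoter held 3 E-boxes and 0 GC boxes, and that of Eef1a2 held 0 E-boxes and 1 GC box. The promoter of Eef1a1 held 0 E-boxes and 2 GC boxes. An E-box occurred in 66.2% of 32851 promoters of the same length and a GC box in 32.7%, so each is a common match. No match to a TATA box (TATAA, in 22.8% of promoters), or to a CArG box (1.47%) or MEF2 site (2.92%), both known from muscle promoters, was in these 3 windows. A match describes the letters in the window and shows no binding. Any link between these matches and the differences between CKD and Sham was not tested.

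Among the large subunit forms, the muscle gene Rpl3l was lower and the ubiquitous gene Rpl3 was higher in CKD. Rpl3l was at 238, 240, 227, 256 and 239 FPKM in CKD 1 to CKD 5, and at 285, 312, 319, 302 and 307 FPKM in Sham 1 to Sham 5. Every CKD mouse was below every Sham mouse, and the lowest Sham value belonged to Sham 1. The means were 240.1 ± 10.3 and 305 ± 13.0 FPKM (SD, n = 5 each), a difference of -0.34 (log2), or 0.788 times the Sham level. Without CKD 1 and Sham 1 it was -0.37.

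Rpl3 was at 79.5, 86.3, 82.9, 80.1 and 89.8 FPKM in CKD 1 to CKD 5, and at 62.0, 71.6, 61.4, 67.0 and 71.5 FPKM in Sham 1 to Sham 5. Here every CKD mouse was above every Sham mouse, with CKD 5 highest. The means were 83.7 ± 4.34 and 66.7 ± 4.93 FPKM (SD, n = 5 each), a difference of 0.33 (log2), or 1.26 times the Sham level, and 0.32 without CKD 1 and Sham 1. In FPKM as listed, the lower level of Rpl3l was the larger of the 2 differences. The summed level of Rpl3l and Rpl3 averaged 324 ± 10.2 FPKM in the CKD mice and 372 ± 15.0 FPKM in the Sham mice (SD, n = 5 each). It ran from 310 to 336 against 346 to 383, and the groups did not overlap. Both statements rest on the listed level of Rpl3, which is uncertain because of the reads it shares with pseudogenes.

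Among the elongation factors, the ubiquitous Eef1a1 was higher in most CKD mice and the muscle gene Eef1a2 had nearly equal means. Eef1a1 was at 398, 451, 446, 419 and 485 FPKM in CKD 1 to CKD 5, and at 355, 368, 365, 396 and 405 FPKM in Sham 1 to Sham 5. The groups overlapped through CKD 1, which lay below Sham 5. The means were 440 ± 32.9 and 378 ± 21.4 FPKM (SD, n = 5 each), a difference of 0.22 (log2), or 1.16 times the Sham level. Without CKD 1 and Sham 1 it was 0.23. Leaving out CKD 1 or Sham 5, the mice that made the overlap, removed it by construction. Scaling the libraries to the same total or quantile normalizing them also left no overlap. It remained under the other pseudocounts and when any other single library was left out.

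By listed FPKM, Eef1a2 was the most abundant of the 4 genes in every library. It was at 709.6, 655, 646, 704 and 638 FPKM in CKD 1 to CKD 5, and at 652, 673, 685, 632 and 711 FPKM in Sham 1 to Sham 5. The groups covered nearly the same range, with means of 671 ± 33.7 and 670.5 ± 30.3 FPKM (SD, n = 5 each). The difference was 0.00028 (log2), and -0.03 without CKD 1 and Sham 1, both smaller than the within-group SD of 0.069.

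**Figure D1:**
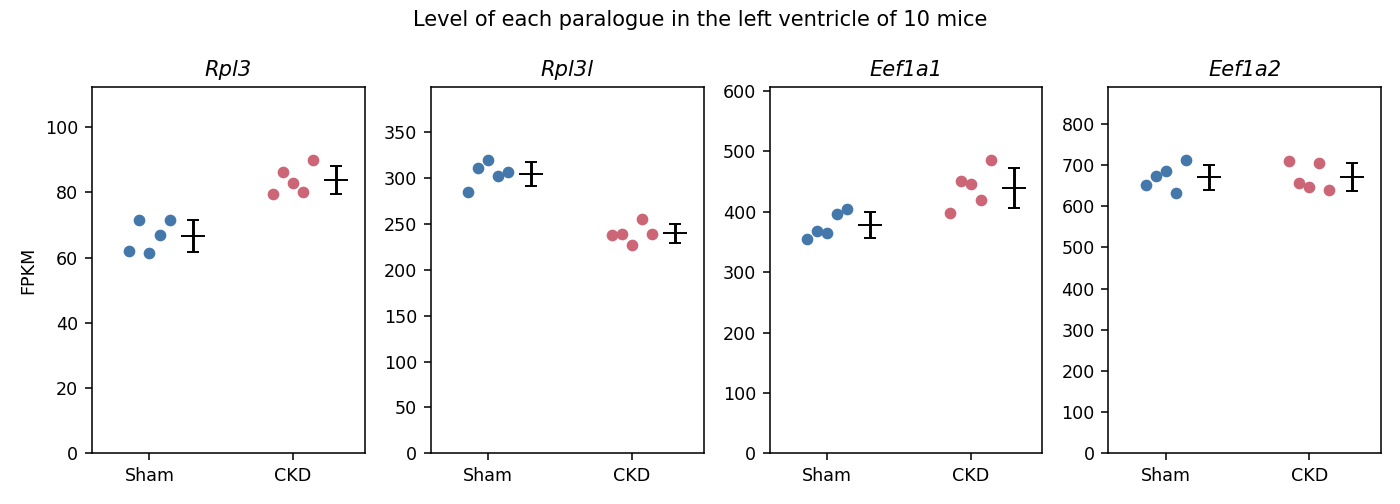
FPKM (vertical axes, from 0) of Rpl3, Rpl3l, Eef1a1 and Eef1a2 in each of 5 Sham and 5 CKD mice (points); the black mark is the mean ± SD. The CKD points lie above the Sham points for Rpl3 (83.7 against 66.7 on average), below them for Rpl3l (240.1 against 305), partly above for Eef1a1 and at the same height for Eef1a2.

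The order of the levels in Sham was Eef1a2, Eef1a1, Rpl3l and Rpl3, and it was the same in CKD. Neighbours in this order did not overlap: over all 10 mice the lowest Eef1a2 value was 632 FPKM and the highest Eef1a1 value 485, the lowest Eef1a1 value was 355 and the highest Rpl3l value 319, and the lowest Rpl3l value was 227 and the highest Rpl3 value 89.8. By mean level Eef1a2 ranked 129th and Eef1a1 218th of all entries, Rpl3l 308th and Rpl3 1049th. Set among 43 other genes for proteins of the large subunit, the Sham mean of Rpl3l was higher than that of 23, near the median of 298 FPKM. That of Rpl3 was higher than 2 of the 43, in a list whose lowest member was Rpl29 at 21.2 FPKM. The reads that Rpl3 shares with pseudogenes, described above, bear on this position and on the order of Rpl3l and Rpl3. The reads that Eef1a1 shares with other genes likewise bear on its place in the order. The part of shared reads in these positions was not tested.

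The ratio of the muscle form to the ubiquitous form was formed in each mouse. The Rpl3l to Rpl3 ratio was 2.99, 2.78, 2.74, 3.20 and 2.67 in CKD 1 to CKD 5, and 4.59, 4.35, 5.20, 4.51 and 4.29 in Sham 1 to Sham 5. The groups were separated by a gap, with the highest CKD mouse, CKD 4, well below the lowest Sham mouse. The mean log2 ratio was 1.51 ± 0.11 in CKD and 2.19 ± 0.11 in Sham (n = 5 each, SD), a difference of -0.67, and -0.69 without CKD 1 and Sham 1. As a share of the pair's summed FPKM, Rpl3l made up 74.1% ± 1.41 in the CKD mice and 82.1% ± 1.10 in the Sham mice (SD, n = 5 each). By listed FPKM, Rpl3l was the more abundant form in every mouse. Its share and this order rest on the level of Rpl3, which is uncertain because of the reads shared with pseudogenes.

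The Eef1a2 to Eef1a1 ratio was 1.78, 1.45, 1.45, 1.68 and 1.32 in CKD 1 to CKD 5, and 1.84, 1.83, 1.88, 1.60 and 1.75 in Sham 1 to Sham 5. CKD 1 and CKD 4 lay within the Sham range and the other 3 CKD mice below it. The mean log2 ratio was 0.61 ± 0.18 in CKD and 0.83 ± 0.09 in Sham (n = 5 each, SD), a difference of -0.22, and -0.26 without CKD 1 and Sham 1. Eef1a2 made up 60.4% ± 2.93 of the pair in the CKD mice and 64.0% ± 1.49 in the Sham mice (SD, n = 5 each). The sum of the pair was 1111 ± 13.2 FPKM in the CKD mice and 1048 ± 41.0 FPKM in the Sham mice (SD, n = 5 each), and the groups overlapped. The share and the sum rest on the listed level of Eef1a1, which is uncertain because of the reads it shares with other genes.

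Among the CKD mice the same animals held the extremes of both pairs. CKD 5 had the highest Rpl3 and Eef1a1 and the lowest share of the muscle form in both pairs (72.7% for Rpl3l and 56.8% for Eef1a2). CKD 1 and CKD 4 had the lowest Rpl3 and Eef1a1 and the highest shares (74.9% and 76.2% for Rpl3l, 64.0% and 62.7% for Eef1a2). With 5 mice in a group and groups that differ, no correlation was computed.

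**Figure D2:**
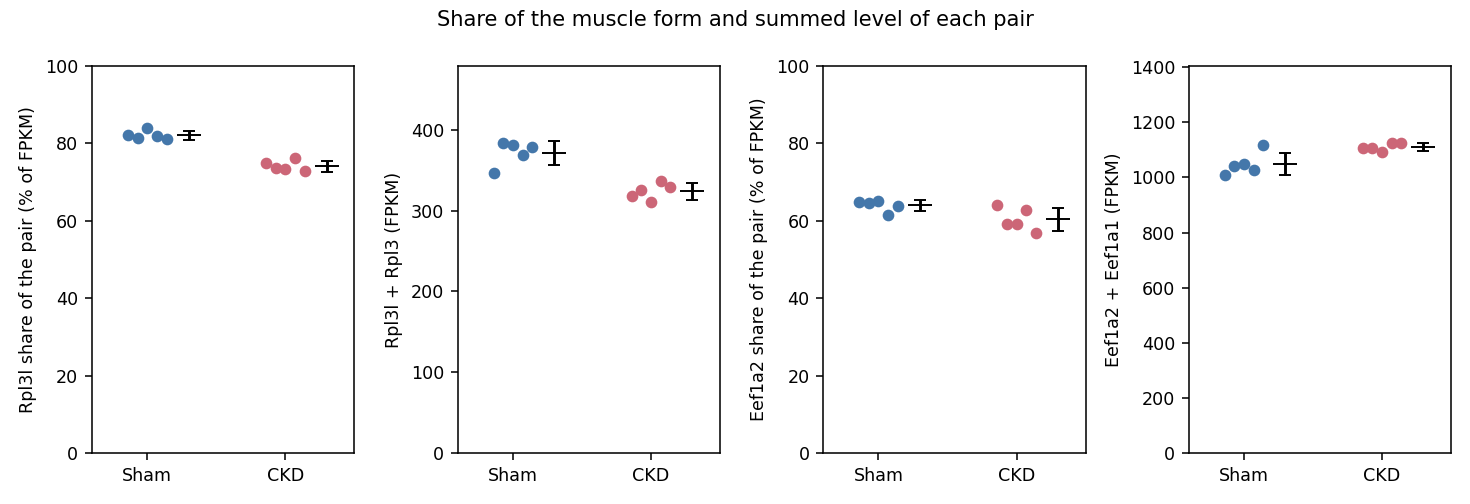
Share of the muscle form in its pair (percent of summed FPKM) and the summed level of the pair (FPKM) in each of 5 Sham and 5 CKD mice (points), with the group mean and SD; all axes start at 0. The Rpl3l share is 74.1% in CKD and 82.1% in Sham with no overlap, whereas the Eef1a2 shares of 60.4% and 64.0% overlap.

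In whole tissue, fewer cells of a type and less RNA per cell cannot be told apart. In the heart the muscle forms are known from cardiomyocytes and the ubiquitous forms from most cell types, so the markers of each cell type are given beside these results. Calls are by the limma test described below, at an adjusted p under 0.05. The summed level of 16 cardiomyocyte markers ranged from 78221 to 98016 FPKM in CKD and from 81185 to 98638 in Sham. Of 15 tested genes 1 was called higher (Csrp3) and 0 lower, and 5 had an unadjusted p under 0.05. Their differences were positive for 7 and negative for 8. Of 14 fibroblast markers 8 were called higher and 0 lower, with 13 positive differences and 1 negative. Their summed level was 1448 to 1651 FPKM in CKD and 1266 to 1395 in Sham. Of 10 tested macrophage markers 5 were called higher and 0 lower, and all 10 differences were positive. Their summed level was 384 to 556 FPKM in CKD and 271 to 328 in Sham. Neither of these 2 sums overlapped between the groups, and their part in the higher Rpl3 and Eef1a1 was not tested. By limma 0 of 12 endothelial markers (468 to 578 FPKM over all mice, 1 with an unadjusted p under 0.05) and 0 of 7 tested smooth muscle markers (1177 to 1623 FPKM, 3 with an unadjusted p under 0.05) passed. Most of the smooth muscle sum was Des, with means of 1405 FPKM in CKD and 1195 FPKM in Sham, so the sum mainly follows that gene. Of the 7 tested smooth muscle markers, 5 had a positive and 2 a negative difference. Acta2 averaged 64.4 FPKM in CKD and 77.2 in Sham, and Tagln 23.3 and 19.9. Over all 11651 tested genes 2275 (19.5%) had an unadjusted p under 0.05 and 5.29% were called. These are the shares against which each such count is to be read.

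Skeletal muscle and neurons also make Rpl3l or Eef1a2. The 13 skeletal muscle markers summed to 19.2 to 51.6 FPKM in CKD and 10.8 to 17.1 in Sham. Limma called 1 of 5 tested genes higher, Mybpc2, the fast myosin binding protein C. Myf6 was listed at 0 in all libraries, which does not show that it was absent. The fast myosins Myh1, Myh2 and Myh4 had means of at most 0.447 FPKM. The highest CKD values were 2.21 FPKM for Myh4, 7.22 for Tnnt3, 6.68 for Tnnc2 and 6.45 for Mylpf. In Sham the highest values, in the same order, were 0.011, 0.527, 0.587 and 1.38 FPKM. Except in CKD 2, most of the sum was Mybpc2, at 16.2 to 20.5 FPKM in CKD and 7.05 to 10.9 in Sham. The other 12 markers summed to 33.1 FPKM in CKD 2, to 2.96 to 6.01 FPKM in the remaining CKD mice and to 3.51 to 6.21 FPKM in the Sham mice, so without CKD 2 the groups overlapped. The part of these markers in the Rpl3l result was not tested. The 12 neuron markers summed to 6.54 to 8.84 FPKM in CKD and 6.56 to 8.85 in Sham, with Chat listed at 0 throughout. Limma called 1 of 2 tested genes lower, Dbh, the enzyme that makes noradrenaline. The other, Stmn2, was not called and differed in the opposite direction (log2 0.30, limma adjusted p = 0.205). It averaged 6.19 FPKM in CKD and 4.95 FPKM in Sham and made up most of the neuron sum. Each of these 2 genes had an unadjusted p under 0.05. The part of neurons in the Eef1a2 level was not tested.

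The other genes of protein synthesis give the setting for the 4 paralogues. CKD was compared with Sham across all 11651 genes with a mean of at least 1 FPKM by limma's two-sided test, p-values being adjusted after Benjamini and Hochberg over all of these genes and called under 0.05. In this comparison 5.29% of the genes were called, 3.17% higher and 2.12% lower in CKD, and 7.28% had groups that did not overlap, 4.1% with CKD higher and 3.18% with CKD lower. Of the 4 paralogues the groups did not overlap for 2, Rpl3 (higher) and Rpl3l (lower), a count the choice of genes had already fixed. Over 9 lists of translation genes, 3 of 211 tested genes (1.42%) were called by limma, 2 higher and 1 lower.

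Of the genes in the large and small subunit lists none was called by limma. Of the 43 large subunit genes with an entry of their own, 14 had a positive and 29 a negative difference, with a median of -0.01 (log2) against -0.0035 over all tested genes. Limma called 0 of them, and 1 had an unadjusted p under 0.05. Their differences ran from -0.12 for Rpl35 (250.4 ± 4.54 FPKM in the CKD mice against 274 ± 38.4 FPKM in the Sham mice) to 0.15 for Rpl39 (320 ± 17.0 and 289 ± 27.5 FPKM; SD, n = 5 each). Of the 33 small subunit genes limma also called 0, with 2 at an unadjusted p under 0.05 and a median of -0.0031. They ran from -0.14 for Rps2, a neighbour of the decoding site (415 ± 23.9 FPKM in the CKD mice against 458 ± 24.6 FPKM in the Sham mice), to 0.12 for Rps28 (346 ± 21.1 and 319 ± 17.7 FPKM; SD, n = 5 each). The differences of Rpl3 (0.33) and Rpl3l (-0.34), by which these genes were chosen, lay outside the range of the 76 genes of both lists, -0.14 to 0.15. Of all tested genes 9.15% had a larger difference in size than Rpl3 and 8.39% than Rpl3l. From the 5th to the 95th percentile the differences of all genes ran from -0.27 to 0.37, a range that holds Rpl3 but not Rpl3l. Summed over the large subunit list, the level was 14830 to 16386 FPKM in CKD and 15202 to 17496 in Sham.

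Among the other paralogues of ribosomal proteins, limma called 1 of 5 tested genes. Rpl22l1, the paralogue of the large subunit protein gene Rpl22, fell from 92.0 ± 6.46 FPKM in Sham to 74.9 ± 5.15 in CKD (SD, n = 5 each; log2 -0.29, SE 0.06, limma adjusted p = 0.0202), and the groups did not overlap. Its call was lost without CKD 2 (adjusted p = 0.0528) or Sham 3 (adjusted p = 0.0548). The list ranged up to 0.11 for Rps27l, with a median of -0.0068. Rpl10l was listed at 0 in all 10 libraries.

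The partners of eEF1A in elongation and the factors of termination were not called by limma (0 of 19 tested, 0 with an unadjusted p under 0.05, median 0.0037). This list holds the exchange factor subunits of eEF1A (Eef1b2, Eef1d), the translocase gene Eef2 and the release factor gene Etf1. Its largest differences were those of Eefsec, the elongation factor for selenocysteine, with 2.91 ± 0.237 FPKM in the CKD mice against 2.41 ± 0.459 FPKM in the Sham mice (log2 0.24, SE 0.11, adjusted p = 0.277), and of Vars, a valine tRNA synthetase (log2 0.11). Of 6 tested genes for the enzymes that methylate RPL3 or eEF1A and the RPL3 chaperone Grwd1, limma called 0, with 2 at an unadjusted p under 0.05. The lowest limma adjusted p of this list was 0.0666, and 1 of its genes had groups that did not overlap. The 2 genes with the largest differences, described next, both had overlapping groups. Mettl18, which methylates a histidine of RPL3, averaged 2.35 ± 0.432 FPKM in the CKD mice against 2.77 ± 0.541 FPKM in the Sham mice (log2 -0.19, SE 0.14, adjusted p = 0.5001). Ece2, whose locus also gives rise to a methyltransferase of eEF1A, averaged 8.77 ± 0.758 FPKM in the CKD mice against 7.40 ± 0.652 FPKM in the Sham mice (log2 0.23, adjusted p = 0.118).

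Of 37 initiation factor genes limma called 1 higher and 0 lower, with a median of 0.02. Pabpc1, which encodes the poly(A) binding protein, rose from 30.8 ± 1.03 to 36.5 ± 1.49 FPKM (SD, n = 5 each; log2 0.24, SE 0.05, limma adjusted p = 0.0128), and the groups did not overlap. In the ribosome assembly list limma called 1 of 39 genes higher and 0 lower, with a median of 0.02. Rrp12, needed for the export of ribosomal subunits from the nucleus, rose from 9.01 ± 0.793 to 13.0 ± 0.537 FPKM (SD, n = 5 each; log2 0.51, SE 0.07, limma adjusted p = 0.00172). It had the largest difference of all 211 translation genes and passed in each alternative run.

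Of 10 genes for mitochondrial translation factors limma called 0, with 1 at an unadjusted p under 0.05, while 9 of the 10 differences were negative (median -0.05). Mtrf1l, a mitochondrial release factor gene, averaged 3.99 ± 0.256 FPKM in the CKD mice against 4.94 ± 0.481 FPKM in the Sham mice (log2 -0.27, SE 0.08, adjusted p = 0.0676), with no overlap, and Mtrf1 had a difference of -0.17. Of 20 tested genes that set translation by growth signals limma called 0, with 5 at an unadjusted p under 0.05, near the 19.5% of all genes (median -0.0093). The largest differences were those of Eif4ebp1, a repressor of cap-dependent initiation, with 138 ± 8.50 FPKM in the CKD mice against 109.7 ± 20.5 FPKM in the Sham mice (log2 0.35, SE 0.11, adjusted p = 0.0913), and of Mknk2, a kinase of the cap-binding factor eIF4E (log2 0.34, adjusted p = 0.0952). Eif4ebp1 passed without Sham 2 (adjusted p = 0.0385).

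**Figure D3:**
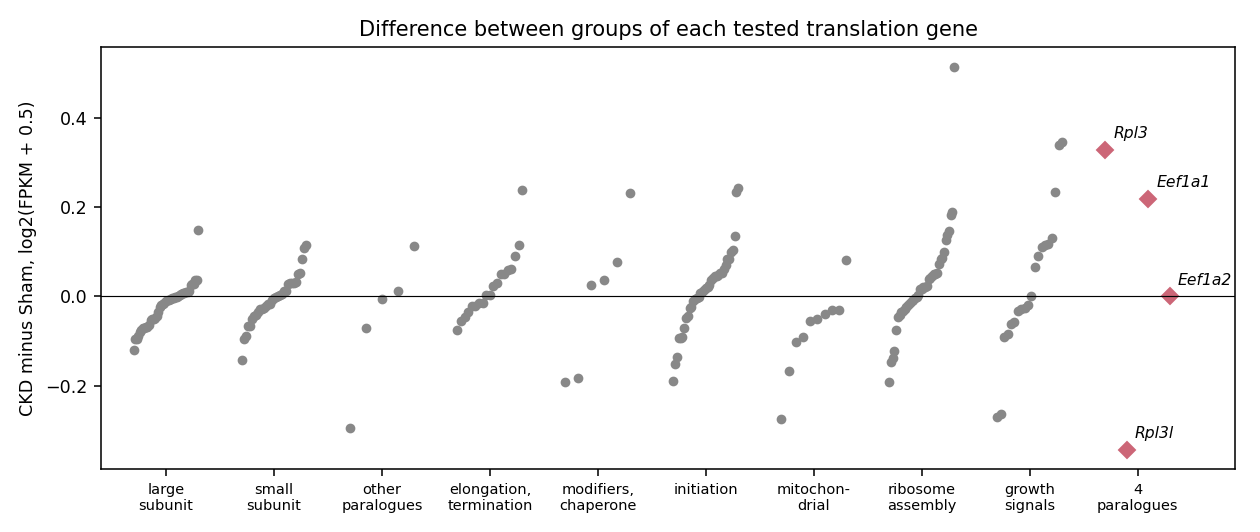
Difference between CKD and Sham means of log2(FPKM + 0.5) for each tested gene (grey points) of 9 translation lists, sorted within a list, and for the 4 paralogues (red diamonds). The 76 ribosomal protein genes of the large and small subunit lie between -0.14 and 0.15, while Rpl3 lies at 0.33 and Rpl3l at -0.34. The 4 paralogues were chosen by their values in these groups.

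Whether other genes with a form for striated muscle showed the same kind of difference was asked in 10 further pairs, which the choice of the 4 genes had not used. These pairs were themselves chosen with earlier results of these data known, so their p-values do not come from a blind choice. Their log2 ratios were compared by an exact permutation test of the 10 mice, two-sided, for which the smallest possible p is 0.00794. In 7 pairs the ratio was lower and in 3 higher in CKD, and 2 of the 10 passed after adjustment over the 10 pairs, 1 in each direction. A pair alone at the smallest possible p could not pass this adjustment, so each of the 2 passed only together with the other. The ratio of Eno3 to Eno1, the muscle and ubiquitous enolases of glycolysis, fell by 0.29 (log2; 5.11 ± 0.08 in CKD and 5.40 ± 0.15 in Sham; n = 5 each, SD; exact permutation p = 0.00794, adjusted p = 0.0397). All 5 CKD mice were below the Sham mice. The ratio of Phka1 to Phka2, the muscle and liver forms of a phosphorylase kinase subunit, rose by 0.47 (1.12 ± 0.07 in CKD and 0.65 ± 0.14 in Sham; n = 5 each, SD; exact permutation p = 0.00794, adjusted p = 0.0397), with all 5 CKD mice above the Sham mice.

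The ratio of Ckm to Ckb, the muscle and brain creatine kinases, was lower by a similar amount but with overlap (log2 -0.29; 5.99 ± 0.21 and 6.28 ± 0.12; exact permutation p = 0.0317, adjusted p = 0.0794). The 10 differences ran from -0.29 to 0.47, so that of Rpl3l to Rpl3 (-0.67) was larger in size than each of them, and that of Eef1a2 to Eef1a1 (-0.22) lay within their range. The Rpl3l and Eef1a2 pairs were chosen by these values and the 10 others were not, so this order cannot show that Rpl3l stands apart. The difference between the pairs was not tested. With 9 or 8 libraries the smallest unadjusted p found rose to 0.0159 and 0.0286, and 0 of the 10 pairs passed. At such p-values a pair could pass only if several others were equally low, so this 0 does not bear on single pairs.

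**Figure D4:**
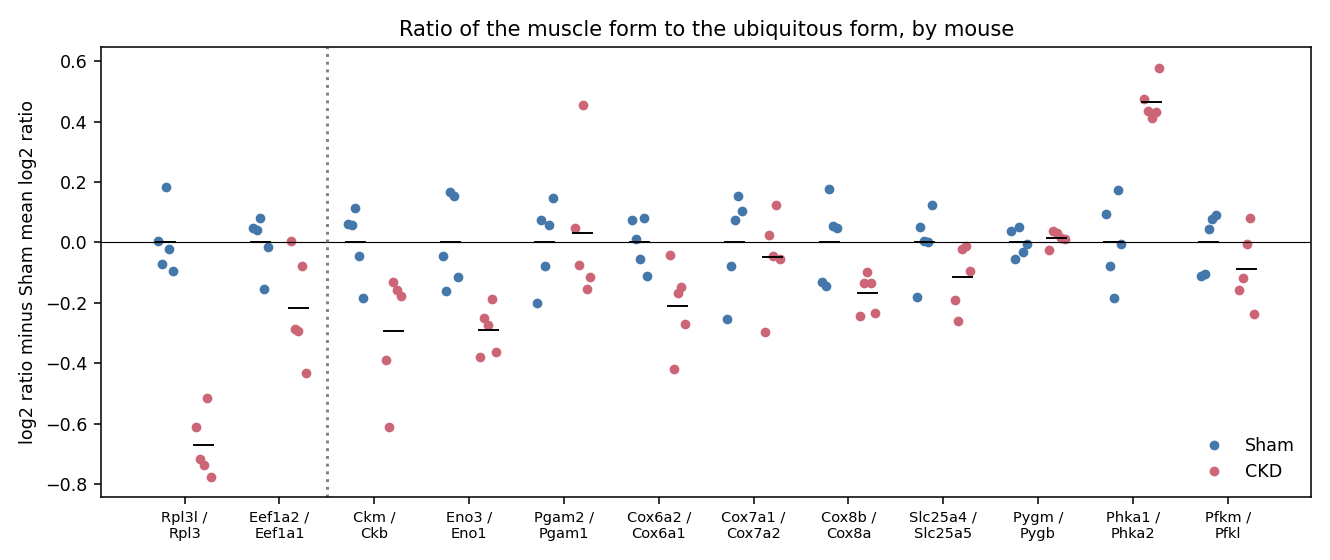
Log2 ratio of the muscle form to the ubiquitous form of each pair, minus the Sham mean, for 5 Sham (blue) and 5 CKD (red) mice, with group means as bars; the dotted line separates the paralogues of Rpl3 and Eef1a1 from the 10 other pairs. The CKD mean is at -0.67 for Rpl3l to Rpl3 and -0.22 for Eef1a2 to Eef1a1, genes chosen by these values, and between -0.29 and 0.47 for the others.

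The genes whose values followed each paralogue most closely over the 10 libraries were found from the root mean square difference between log2 profiles, each centred on its own mean, among 10901 named tested genes. Since the profiles include the difference between the groups, these genes are given as a description. Closest to Rpl3l was Nt5c1a, a cytosolic nucleotidase that acts on AMP, with a root mean square difference of 0.037. It averaged 15.5 ± 1.20 FPKM in the CKD mice against 19.8 ± 1.12 FPKM in the Sham mice (SD, n = 5 each). Unc45b, the myosin chaperone of striated muscle, followed at 0.057, with 68.9 ± 2.83 and 84.8 ± 6.82 FPKM, and then Sqrdl, the mitochondrial sulfide quinone oxidoreductase, at 0.062.

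Closest to Rpl3 were Sulf1, an extracellular sulfatase that edits heparan sulfate, at 0.064, Dap, a death-associated protein, at 0.064, and P2rx5, an ATP-gated ion channel, at 0.069. Sulf1 averaged 7.17 ± 0.505 FPKM in the CKD mice against 5.51 ± 0.687 FPKM in the Sham mice (SD, n = 5 each). Closest to Eef1a1 were Rsu1, a partner of the integrin-linked adhesion complex, at 0.036, the Z-disc gene Myoz2 at 0.060 and the endothelial gene Pecam1 at 0.061. Rsu1 averaged 33.7 ± 2.67 FPKM in the CKD mice against 28.6 ± 0.874 FPKM in the Sham mice (SD, n = 5 each). Closest to Eef1a2, whose profile was nearly flat, were Tom1l2 at 0.035, Lztr1 at 0.040 and Dpp9 at 0.041.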

How the data were processed

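RNA of the left ventricle of 10 mice was sequenced from TruSeq mRNA libraries as single reads of 100 bases, per the labels' protocols. The authors deposited a single table of FPKM values, 1 column per library; STAR 2.4.0f1, Cufflinks 2.1.1, Cuffdiff 2.1.1 and the builds mm10 and hg19 are named in the submitters' processing notes, with no role given. FPKM is not a count, so the depth behind each value is unknown and count tests were not applied. Library totals ranged from 570509 to 605007 FPKM, and no 2 libraries held identical values. Columns were matched to mice by their titles, and groups came from the surgery label; mice are numbered only to name them.

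CKD was compared with Sham in R 4.3.3 by the linear models of limma 3.58.1, whose eBayes step used a trend in the variance, on log2(FPKM + 0.5), without further scaling, for 11651 genes with a mean of at least 1 FPKM. The fit was tested on simulated data. Ratios of other pairs were compared by exact permutation (scipy 1.17.1) with Benjamini-Hochberg adjustment. The 4 genes, the 9 translation lists, the 7 marker lists and the 10 pairs were chosen with earlier results of these data known. Genes named are the 4 paralogues, up to 4 called genes of each translation list or the 2 with the largest difference where none was called, the 3 most similar genes of each paralogue, the nearest protein-coding gene on each side (1 of these is not reported here), and up to 3 pairs. Csrp3, Mybpc2, Dbh, Rps27l, Rpl29, Grwd1, Rpl10l and the other markers and list members named were added after their values were seen. List members with no entry of their own were not analysed here. Coding sequences and windows of 100 bases, on either strand, were read from GENCODE transcripts of GRCm38, the assembly that mm10 denotes, and aligned with Biopython 1.88. Alternatives were other pseudocounts, filters, scalings and variance models, and leaving out libraries.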

Additional observations from a re-analysis of the deposited data

Results flagged for a closer look

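In groups of 5 mice, a value was singled out when its gap to the nearest other value exceeded 0.71 of the group's range, which chance gives in about 1 of 20 groups; 132 groups were examined and 5 values stood out. None of the 4 paralogues, of their ratios or of the 10 other pair ratios had such a value. CKD 1 had a summed level of cardiomyocyte markers of 78221 FPKM, where CKD 2 to CKD 5 had 95893 to 98016, and Sham 1 had 81185 against 93582 to 98638 in the other Sham mice. CKD 1 also had the lowest sum of mitochondrial translation factors, 395 FPKM beside 422 to 428 FPKM elsewhere in the group. Ndufb10, a subunit of respiratory complex I and the neighbour of Rpl3l, was at 748 FPKM in CKD 1 and at 962 to 1019 FPKM in CKD 2 to CKD 5. CKD 2 had a summed level of skeletal muscle markers of 51.6 FPKM, the remaining CKD mice 19.2 to 26.5 FPKM.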

How the results depend on the processing

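The differences of Rpl3 (0.299 to 0.354 on the log2 scale when 1 library was left out) and Rpl3l (-0.369 to -0.325), and that of their log2 ratio (-0.711 to -0.626), kept their direction and moved by less than the SD between mice under the other pseudocounts, both scalings and every left-out library. Those of Eef1a1 (0.182 to 0.253) and of the Eef1a2 to Eef1a1 ratio (-0.274 to -0.164) did so as well, while Eef1a2 (-0.021 to 0.022) had no fixed sign. The count of called ribosomal protein genes of both subunits was 0 in all 19 alternatives, and that of all translation genes was 2 to 4. Leaving out 1 library gave 202 to 385 genes higher and 131 to 290 lower, against 369 and 247 with all libraries; dropping CKD 2 gave 223 higher and 131 lower, CKD 5 gave 238 and 142, Sham 2 gave 245 and 162, Sham 3 gave 202 and 138, Sham 4 gave 236 and 162, and CKD 3 gave 155 lower. Of the other pairs, 4 passed under quantile normalization, 0 when 1 library was left out and 0 without CKD 1 and Sham 1, where fewer samples raise the smallest p; the cause of the 4 was not tested. Neither the other pseudocounts nor scaling to the same total changed that count. The depth behind the FPKM values is unknown. No paired analysis was possible because the labels give no replicate numbers that link mice across the groups.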

Other observations

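Nearest protein-coding genes of the 4 paralogues with a mean of at least 1 FPKM were described with the same test, since they lie in the same stretch of genome. Of the 7 neighbours tested limma called 0, with 3 at an unadjusted p under 0.05 (19.5% of all tested genes were), and their groups overlapped in all 7. Beside Rpl3l, Msrb1, a methionine sulfoxide reductase gene 450 bases away, averaged 150.0 ± 8.80 FPKM in the CKD mice against 148 ± 15.8 FPKM in the Sham mice, and Ndufb10 was at 941 ± 110.1 and 959 ± 77.1 FPKM (SD, n = 5 each). Beside Rpl3, Syngr1, a synaptic vesicle protein gene 7928 bases away, averaged 111 ± 6.00 FPKM in the CKD mice against 93.8 ± 8.57 FPKM in the Sham mice (SD, n = 5 each; log2 0.25, SE 0.07, limma adjusted p = 0.0514). Syngr1 passed under quantile normalization (adjusted p = 0.0373), with robust variances (0.0462), without Sham 1 (0.0278) and without CKD 1 and Sham 1 (0.0292). Pdgfb on the other side of Rpl3 had a difference of 0.17 (adjusted p = 0.238). Beside Eef1a1, Mto1, a gene for mitochondrial tRNA modification, had a difference of -0.16 (adjusted p = 0.225) and Slc17a5, a lysosomal transporter gene, one of 0.04. Ppdpf, beside Eef1a2, had a difference of -0.0097.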
